A study of Mus musculus with 48 samples.

Results

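Dio2, Arrdc3, Plk2, Acy1 and Kbtbd11 are 5 of the 49568 genes in a table of mRNA counts from RAW264.7, a macrophage line of the mouse. They were chosen by their measured values: in 48 libraries they were among the genes with the largest fold change between cells given the LE peptide with IFN-γ (labelled LE+IFNy) and cells given IFN-γ alone (labelled IFNy), in the same direction in both of the series of library labels. Their values in that comparison are therefore a description, and tests are given only for comparisons between groups that the choice did not use.

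All cells were of this 1 line, grown in DMEM for 72 h and without any genetic change named in the labels. The 8 groups were PBS (no peptide and no IFN-γ), the peptides LE, SE and PE at 100 μg/ml without IFN-γ, 5 ng/ml IFN-γ alone (IFNy), and each peptide with IFN-γ (LE+IFNy, SE+IFNy and PE+IFNy). The peptides are synthetic 15-mers of residues 65-79 of the human HLA-DRβ chain, with DRB1*04:02 as the source of PE, DRB1*03:01 of LE and DRB1*04:01 of SE, so that free peptide was added and no HLA-DR molecule was expressed. Each group had 6 libraries, 3 labelled with a letter (A to X) and 3 labelled HLA. The study describes them as biological replicates from independent experiments, and the labels do not say which libraries came from which experiment. Library totals were 16.5 to 26.9 M counts in the letter-labelled series (median 22.9 M, where M is 1000000) and 14.1 to 42.6 M in the HLA-labelled series (median 23.2 M). Among 1128 pairs of libraries, 0 were identical and the lowest chi-square was 3.89 per degree of freedom, so all were counted separately. Of 8 macrophage markers, 7 exceeded 1 CPM (counts per 1000000 counts of the library) in all 48 libraries, while the summed markers of T, B, NK, fibroblast, epithelial and endothelial cells reached at most 3.26 CPM in any library.

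The IFN-γ state of each library was checked with 20 known targets of IFN-γ, by averaging log2(CPM + 1) over them. In the letter-labelled series it followed the labels, from 2.80 to 2.93 in the 12 libraries labelled without IFN-γ and from 6.87 to 7.21 in the 12 labelled with it. In the HLA-labelled series it went against the labels of 4 groups. It was 7.25 to 7.33 in libraries labelled LE and 7.12 to 7.24 in those labelled PE, but 2.60 to 2.74 in those labelled IFNy and 2.63 to 2.71 in those labelled SE+IFNy. The libraries labelled PBS (2.71 to 2.78), SE (2.65 to 2.88), LE+IFNy (6.74 to 6.84) and PE+IFNy (6.90 to 7.01) went with their labels. The IFN-γ state does not check which peptide a library was given. The letter-labelled series is therefore the basis of what follows, the HLA-labelled values are given beside it under their own labels, and no library was moved to another group.

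IFN-γ binds its receptor on macrophages and induces genes of antigen presentation, inflammation and host defence, while it also lowers many genes of resting metabolism. The 5 genes belong to separate pathways. Dio2 encodes type 2 deiodinase, a selenoenzyme that converts the prohormone thyroxine to the active hormone T3 inside cells. Arrdc3 is an α-arrestin, an adaptor that links membrane proteins to ubiquitin ligases of the NEDD4 family. Plk2 is a polo-like kinase with roles in the cell cycle and the stress response, and a known target gene of p53. Acy1 is the cytosolic aminoacylase that removes the acetyl group from N-acetylated amino acids. Kbtbd11 carries BTB and Kelch domains, as do adaptors of the ubiquitin ligase cullin 3.

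The start regions of these genes are shown because 3 of the genes were higher together and both of the others lower together. That split was set by the choice, which took genes from both directions, and shared control of the genes was not tested. The windows are from RefSeq on GRCm38.p6, from 250 bases before to 50 bases after each start site, 5′ to 3′ on the gene's strand. They were found for 4 of the 5 genes, in 6 windows, and not for Kbtbd11. Capitals mark motifs of known factors. In Dio2 and Plk2 these are the letters TGACGTCA of the cAMP response element, and in Dio2 also a TATA box with the letters TATAAA. In Arrdc3 the capitals mark a CCAAT box, which is in 2 of its 3 windows, while the window at chr13:80885845-80886144, of another start site, held none of the motifs searched. In Acy1 they mark an E-box, spelled CACGTG, and a CCAAT box on the other strand.
Dio2, chr12:90738989-90739288, minus strand: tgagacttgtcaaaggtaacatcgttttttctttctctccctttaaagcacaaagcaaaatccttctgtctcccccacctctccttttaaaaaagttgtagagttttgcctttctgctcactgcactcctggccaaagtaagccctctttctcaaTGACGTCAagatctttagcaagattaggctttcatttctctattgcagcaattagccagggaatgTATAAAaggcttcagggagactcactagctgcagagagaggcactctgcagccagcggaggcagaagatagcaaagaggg
Plk2, chr13:110394794-110395093, plus strand: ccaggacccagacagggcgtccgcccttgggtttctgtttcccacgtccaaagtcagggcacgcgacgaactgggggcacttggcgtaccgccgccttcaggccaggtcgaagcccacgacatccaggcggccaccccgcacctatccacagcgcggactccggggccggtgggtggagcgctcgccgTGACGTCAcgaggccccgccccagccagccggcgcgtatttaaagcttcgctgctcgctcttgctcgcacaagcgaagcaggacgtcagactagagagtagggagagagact
Arrdc3, chr13:80883134-80883433, plus strand: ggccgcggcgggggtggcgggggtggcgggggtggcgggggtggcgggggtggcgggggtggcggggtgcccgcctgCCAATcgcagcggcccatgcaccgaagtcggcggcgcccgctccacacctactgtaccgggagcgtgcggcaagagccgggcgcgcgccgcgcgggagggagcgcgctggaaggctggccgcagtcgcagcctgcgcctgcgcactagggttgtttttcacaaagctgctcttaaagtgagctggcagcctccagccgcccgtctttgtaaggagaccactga
Acy1, chr9:106438187-106438486, minus strand: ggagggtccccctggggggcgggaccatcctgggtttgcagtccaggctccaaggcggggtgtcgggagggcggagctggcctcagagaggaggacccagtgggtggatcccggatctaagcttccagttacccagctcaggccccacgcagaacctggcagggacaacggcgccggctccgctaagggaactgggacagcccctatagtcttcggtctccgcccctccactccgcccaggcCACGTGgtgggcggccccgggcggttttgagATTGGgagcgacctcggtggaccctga

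The full TGACGTCA stood 95 bases before the start site of Dio2 and 62 bases before that of Plk2. It was present in 588 of 32851 windows of all genes (1.79%), searched on both strands. A looser form, TGACGTN, was also searched and was present in 7.5% of all windows. It had a further match in Plk2, 19 bases after the start site, which is not in capitals. CACGTG was present in 7.15% of all windows, TATAAA in 13.6% and CCAAT in 37.4%. Of 2 motifs tied to interferon signalling, the core of the interferon-stimulated response element (in 3.44% of all windows) had 1 match among the members' windows, in Plk2, and the gamma activated site TTCNNNGAA (8.3% of all windows) had no match in any of the 6. The motifs were chosen after the sequences were seen, and a match is a description of letters. The RefSeq start site of Dio2 lies 600 bases upstream of the gene's end in the GENCODE M21 annotation, so that window is outside the annotated gene.

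On GRCm38, Dio2 is at chr12:90724552-90738438 (minus strand), Arrdc3 at chr13:80883384-80896042 (plus), Plk2 at chr13:110395046-110400844 (plus), Acy1 at chr9:106432981-106438319 (minus) and Kbtbd11 at chr8:15011025-15033333 (plus), and all 5 are protein-coding. Genes on the opposite strand overlap Dio2 (Gm26512), Arrdc3 (1700023H06Rik) and Kbtbd11 (5830468F06Rik and Gm37844). The libraries were stranded but the strand setting of the counting is not given in the sources used here, so reads of these genes may not be told apart from those of their partner. The partners were low in the letter-labelled libraries, with at most 19 counts for Gm26512, 6 for 1700023H06Rik, 28 for Gm37844 and 0 for 5830468F06Rik. Gm37844 was itself lower in LE+IFNy than in IFNy (0.20 against 0.69 CPM, log2 fold change -1.76, edgeR adjusted p 0.00452), and its part in the Kbtbd11 counts was not tested.

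Dio2 was near the lower end of detection without IFN-γ, at 1.02 to 2.12 CPM in the 12 letter-labelled libraries of PBS, LE, SE and PE. With IFN-γ alone its level was 6.23, 3.93 and 7.17 CPM in the 3 libraries. With IFN-γ it was 27.6, 25.3 and 26.6 CPM when LE was present, and 28.8, 21.5 and 22.4 CPM when SE was present. With PE and IFN-γ it was 7.55, 7.47 and 5.65 CPM. The LE+IFNy and SE+IFNy libraries overlapped each other and lay above all others, and the PE+IFNy libraries overlapped those of IFNy.

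Arrdc3 was also low without IFN-γ, at 1.17 to 2.61 CPM. It was 3.32, 1.88 and 4.01 CPM with IFN-γ alone and 3.93, 3.61 and 2.74 CPM with PE and IFN-γ. Both of these groups overlapped, and the IFNy libraries also overlapped those of PBS. It was 10.8, 9.50 and 12.9 CPM with SE and IFN-γ and 22.4, 18.6 and 24 CPM with LE and IFN-γ. Here LE+IFNy stood above SE+IFNy in every library, by a log2 difference of 0.96 (SE 0.162), the largest gap between LE and SE among the 5 genes.

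Plk2 was detected well without IFN-γ, at 35.3 to 61.8 CPM. It was 109, 81.3 and 112 CPM with IFN-γ alone and 113, 108 and 97.6 CPM with PE and IFN-γ, and these groups overlapped. With SE and IFN-γ it was 319, 259 and 293 CPM. With LE and IFN-γ it was 380, 348 and 435 CPM, all above the SE+IFNy libraries.

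Acy1 moved the other way. Its level was 52.8 to 70.1 CPM without IFN-γ. There the LE and SE libraries (61.8 to 70.1 CPM) and the PE libraries (55.1 to 62.2 CPM) lay above those of PBS (52.8 to 54.6 CPM). Of all 12420 genes tested, 25.8% had no overlap between LE and PBS, 38.8% between SE and PBS and 35.4% between PE and PBS. Acy1 was 16.0, 26.1 and 14.0 CPM with IFN-γ alone and 15.1, 16.5 and 19.7 CPM with PE and IFN-γ, so that these groups overlapped. It was 7.99, 10.2 and 7.72 CPM with SE and IFN-γ and 7.15, 6.57 and 6.42 CPM with LE and IFN-γ. The LE+IFNy libraries were the lowest of all 24, without overlap with SE+IFNy.

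Kbtbd11 followed the pattern of Acy1 with IFN-γ. It was 88.6 to 134 CPM in the libraries without IFN-γ, lowest in SE (88.6 to 101 CPM). It was 33.0, 34.5 and 28.9 CPM with IFN-γ alone and 31.2, 30.8 and 33.4 CPM with PE and IFN-γ, again overlapping. It was 13.8, 13.7 and 13.6 CPM with SE and IFN-γ, and 13, 11.6 and 10.7 CPM with LE and IFN-γ, without overlap between these groups. Of all 12720 genes tested, 51% had no overlap between LE+IFNy and SE+IFNy, and 27.3% had none between PE+IFNy and IFNy. A lack of overlap between LE+IFNy and SE+IFNy, or an overlap of PE+IFNy with IFNy, was thus common.

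**Figure D1:**
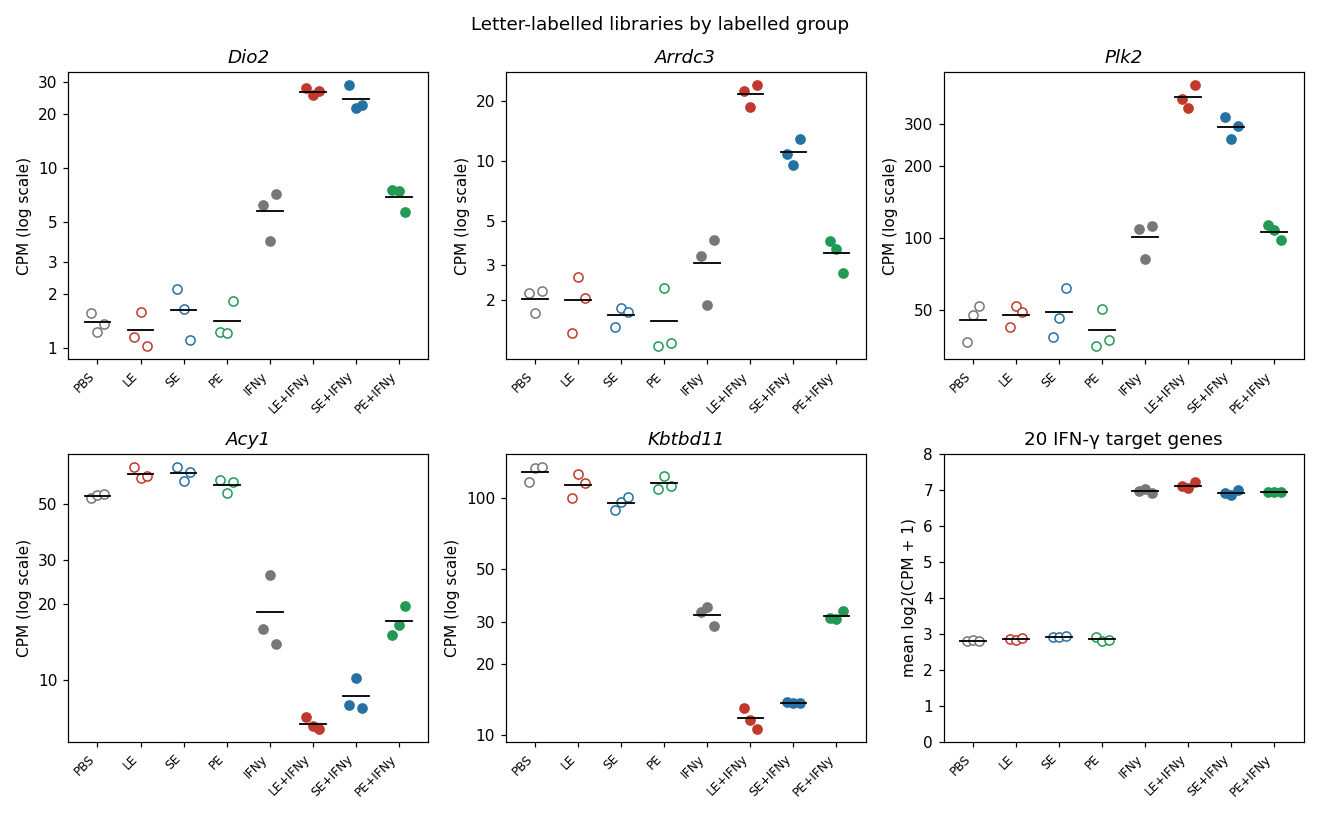
Level of each gene in the 24 letter-labelled libraries, as CPM on a log axis by labelled group, and in the last panel the average over 20 targets of IFN-γ of log2(CPM + 1). Each point is 1 library, the bar is the mean of the 3 libraries of a group, and open points are groups without IFN-γ. Dio2, Arrdc3 and Plk2 are highest and Acy1 and Kbtbd11 lowest in LE+IFNy and SE+IFNy. PE+IFNy overlaps IFNy in all 5, where 27.3% of all genes tested had no overlap.

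For levels between genes, CPM was divided by the summed length of the exons. In PBS the mean was 0.24 CPM per kb for Dio2 and 0.32 for Arrdc3, against 10.1 for Plk2, 18.2 for Acy1 and 17.9 for Kbtbd11. In LE+IFNy it was 4.56 for Dio2, 3.45 for Arrdc3 and 86.3 for Plk2, against 2.26 for Acy1 and 1.65 for Kbtbd11. Per length, Acy1 and Kbtbd11 were thus the highest of the 5 in PBS and the lowest in LE+IFNy, and Plk2 was the highest in LE+IFNy. As these are cell populations, fewer expressing cells and less RNA per cell cannot be told apart.

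The peptides without IFN-γ asked what each does to these genes alone. A gene was called where the edgeR quasi-likelihood test gave an adjusted p under 0.05 over all genes and the fold exceeded 1.5. For LE against PBS 0 of 5 genes were called, where 0.0242% of 12420 genes were. For SE against PBS it was 0 of 5 (1.92% of all genes) and for PE against PBS 0 of 5 (3.13%). Between peptides it was 0 of 5 for LE against SE (0% of all genes, with 687 genes at an unadjusted p under 0.05 and 0 called by DESeq2), for LE against PE (0.0242%) and for SE against PE (0.0322%). In these 3 comparisons the replicate numbers paired the libraries, and with the replicate number as a block 0 of 5 were again called, while 1, 18 and 9 of all 12420 genes were, against 0, 3 and 4 without it. Acy1 had smaller shifts that stayed under the fold limit. Against PBS its log2 fold change was 0.37 with SE (standard error 0.0777, edgeR adjusted p 0.0115), 0.23 with PE (standard error 0.0779, edgeR adjusted p 0.049) and 0.34 with LE (standard error 0.0777, edgeR adjusted p 0.201). Kbtbd11 was lower with SE (log2 fold change -0.36, standard error 0.0928, edgeR adjusted p 0.0247). The depth leaves room for changes of the low genes: the 95% interval for LE against PBS was -0.74 to 0.55 for Dio2 and -0.60 to 0.65 for Arrdc3, against -0.25 to 0.49 for Plk2 and -0.32 to 0.07 for Kbtbd11.

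With IFN-γ, SE against PE tested the genes in groups that had no part in their choice. Their libraries were of the same letter-labelled series as libraries that the choice used. The fit behind the standard errors and p-values also held the IFNy and LE+IFNy libraries. These errors and p-values are thus not independent of the choice, and no fit without those libraries was made. All 5 were called, Dio2, Arrdc3 and Plk2 as higher with SE and Acy1 and Kbtbd11 as lower, where 7.59% of 12720 genes were called (5.25% higher and 2.34% lower). Dio2 was 3.52-fold higher (log2 fold change 1.81, SE 0.157, edgeR adjusted p 1.42e-07). Arrdc3 was 3.23-fold higher (log2 fold change 1.69, SE 0.194, edgeR adjusted p 3.61e-06) and Plk2 2.74-fold higher (log2 fold change 1.46, SE 0.109, edgeR adjusted p 2.54e-08). Acy1 was 1.99-fold lower (log2 fold change -0.996, SE 0.18, edgeR adjusted p 0.000354) and Kbtbd11 2.33-fold lower (log2 fold change -1.22, SE 0.0833, edgeR adjusted p 8.29e-09). The groups did not overlap in any of the 5 genes, as in 47.6% of all genes. So the genes chosen for LE also separated SE from PE. These calls rest on the letter-labelled libraries: with both series as labelled 0 of the 5 were called (0 of 13961 genes), and in the HLA-labelled series alone all 5 were called with the opposite sign (Dio2 -0.69, Acy1 1.65, with 14.5% of all genes called), between libraries labelled SE+IFNy with a low IFN-γ state and libraries labelled PE+IFNy with a high one.

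IFN-γ itself moved all 5 genes in the presence of SE or PE. The choice did not use these groups, but it used LE+IFNy against IFNy in the HLA-labelled series. There the mean IFN-γ state was 6.78 in LE+IFNy and 2.67 in IFNy. The choice thus favoured genes that move with IFN-γ state, and the calls that follow are not independent of it. For SE+IFNy against SE 5 of 5 were called (26.3% of 12947 genes, 15.1% higher and 11.3% lower), and for PE+IFNy against PE 5 of 5 (21% of all genes, 12.1% higher and 8.82% lower). Dio2 was 14.3-fold higher with SE (log2 fold change 3.84, SE 0.188, edgeR adjusted p 5.65e-13) and 4.79-fold higher with PE (log2 fold change 2.26, SE 0.21, edgeR adjusted p 1.78e-08). Plk2 was 5.78-fold and 2.49-fold higher. Arrdc3 was 6.45-fold higher with SE and 2.08-fold with PE, and without replicate 1 the latter call was lost (log2 fold change 0.78, edgeR adjusted p 0.0569). Acy1 was 7.93-fold lower with SE and 3.60-fold lower with PE, and Kbtbd11 7.15-fold and 3.73-fold lower. Both series pooled as labelled gave 0 of 5 called in either comparison (0 and 271 of 14339 genes). The HLA-labelled series alone gave 0 of 5 for SE+IFNy against SE, where 0.145% of all genes were called, and 5 of 5 with the opposite sign for PE+IFNy against PE, where 14.7% were. In that series the libraries labelled SE and SE+IFNy both had a low IFN-γ state, and those labelled PE and PE+IFNy both a high one. These HLA-labelled values thus do not measure a response to IFN-γ.

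The difference between these responses was tested as an interaction. It uses the same SE+IFNy and PE+IFNy libraries as SE+IFNy against PE+IFNy, and its fit also held LE+IFNy. Without IFN-γ, SE against PE had log2 fold changes from -0.28 (Kbtbd11) to 0.24 (Plk2). The interaction is thus close to SE+IFNy against PE+IFNy and is not separate support for it. The response to IFN-γ was larger with SE than with PE in all 5 genes (5 of 5 called, 4.81% of 12947 genes, 2.89% with a positive and 1.92% with a negative difference). On the log2 scale the response with SE minus that with PE was 1.58 for Dio2 (SE 0.307, edgeR adjusted p 0.00164) and 1.63 for Arrdc3 (SE 0.346, edgeR adjusted p 0.0033). It was 1.22 for Plk2 (SE 0.202, edgeR adjusted p 0.000399). It was -1.14 for Acy1 (SE 0.149, edgeR adjusted p 3.67e-05) and -0.94 for Kbtbd11 (SE 0.121, edgeR adjusted p 2.97e-05). Both series together as labelled gave 0 of 5 (0 of 14339 genes), and the HLA-labelled series alone 5 of 5 (13.2% of all genes). Of the HLA-labelled groups compared there, PE and SE+IFNy had an IFN-γ state that went against their labels.

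**Figure D2:**
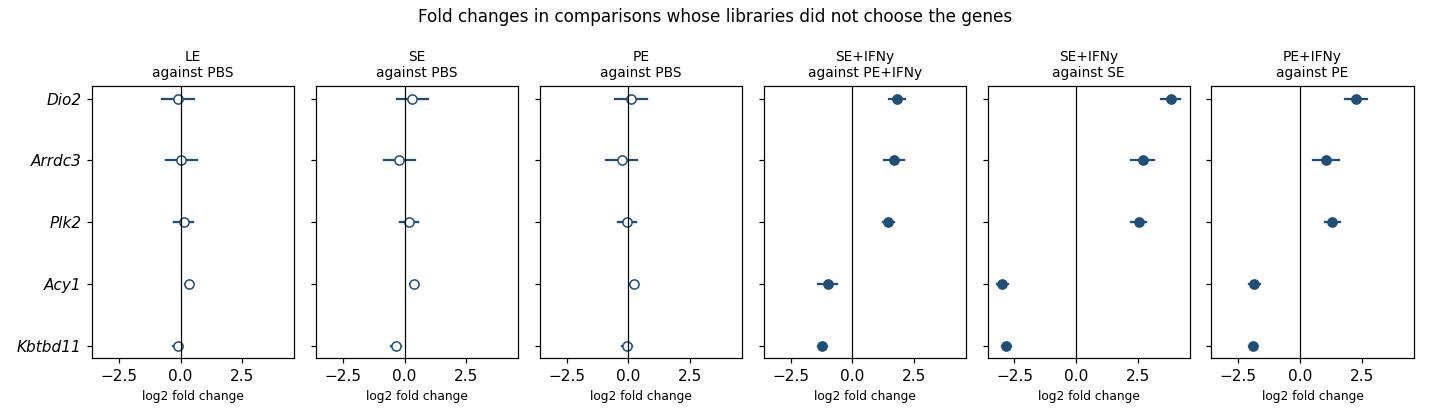
Log2 fold change of each gene in 6 of the comparisons between groups that had no part in the choice of genes. Letter-labelled libraries are shown, with 95% intervals as lines and called genes as filled points. SE+IFNy against SE and PE+IFNy against PE are not independent of the choice, which favoured genes that move with IFN-γ state. The fits of all 3 comparisons with IFN-γ also held the LE+IFNy libraries, which the choice used. The 5 genes lie near 0 for the peptides without IFN-γ and away from it in all 3 comparisons with IFN-γ, with Dio2, Arrdc3 and Plk2 to the right and Acy1 and Kbtbd11 to the left.

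The comparison that chose the genes, LE+IFNy against IFNy, is given as values with no test, where 15.5% of 12720 genes were called (9.58% higher and 5.93% lower). With the HLA-labelled libraries 13.7% were called, and with both series 0.788% of 13961. The log2 fold change was 2.22 for Dio2 (SE 0.16), 2.84 for Arrdc3 (SE 0.19), 1.96 for Plk2 (SE 0.111), -1.46 for Acy1 (SE 0.183) and -1.43 for Kbtbd11 (SE 0.0842). Against the same IFNy libraries SE+IFNy gave 2.10 for Dio2 (SE 0.161), 1.89 for Arrdc3 (SE 0.198), 1.55 for Plk2 (SE 0.11), -1.10 for Acy1 (SE 0.179) and -1.21 for Kbtbd11 (SE 0.0832). For PE+IFNy against IFNy the values were 0.29, 0.20, 0.10, -0.10 and 0.01 in the same order, with SEs from 0.0782 to 0.228. These 3 comparisons share the IFNy libraries. LE+IFNy minus SE+IFNy was 0.12 for Dio2 (SE 0.138), 0.40 for Plk2 (SE 0.105), -0.37 for Acy1 (SE 0.195) and -0.23 for Kbtbd11 (SE 0.0888), also as a description. IFN-γ without peptide, against PBS, gave 2.07 for Dio2, 0.61 for Arrdc3, 1.17 for Plk2, -1.51 for Acy1 and -1.98 for Kbtbd11. In the presence of LE it gave 4.37, 3.41, 3.00, -3.32 and -3.29.

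**Figure D3:**
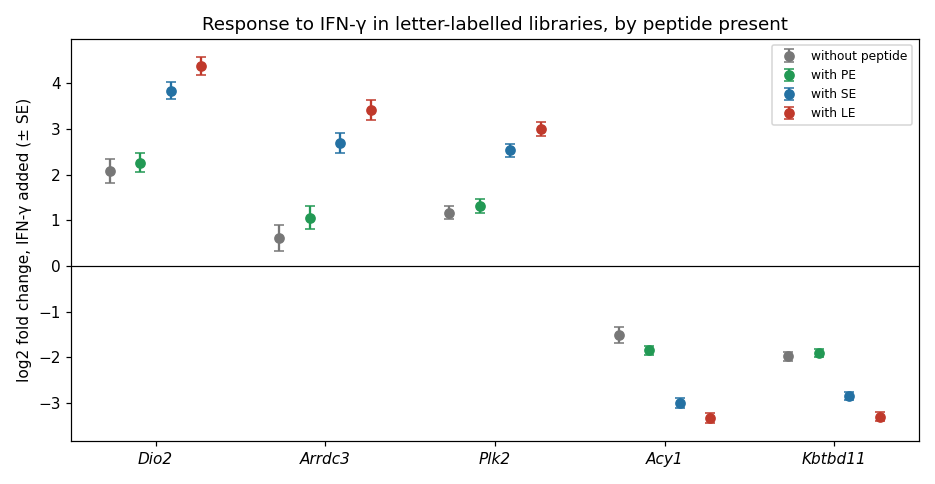
Log2 fold change on adding IFN-γ (± SE) for each gene in the letter-labelled libraries, without peptide and with PE, SE or LE. Dio2, Arrdc3 and Plk2 lie above 0 and Acy1 and Kbtbd11 below, with values of 2.07 to 4.37 for Dio2, and the points with SE and LE lie farther from 0 than those without peptide or with PE.

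Near the limit of the choice, in a fit of both series, the third gene that was higher was Plk2 at a log2 fold change of 1.72 and the next, which was not chosen, was Id2 at 1.69. Of the lower genes, Kbtbd11 was the last chosen, at -1.72. The choice also asked for a mean of at least 10 CPM. Arrdc3 had 11.8 CPM over the libraries labelled LE+IFNy and IFNy but 9.61 CPM over all 4 groups labelled with IFN-γ, so its place depends on which libraries the mean covers.

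In the HLA-labelled libraries the levels are given by label. Dio2 was 93.0 ± 6.59 CPM (SD, n = 3) in libraries labelled LE, 66.5 ± 9.86 in PE, 22.6 ± 3.87 in LE+IFNy and 9.03 ± 0.855 in PE+IFNy, and 4.4 to 5.43 CPM on average in PBS, SE, IFNy and SE+IFNy. Arrdc3 was 51.1 ± 13.8 CPM in LE, 35.9 ± 4.77 in PE, 15.8 ± 1.30 in LE+IFNy and 9.57 ± 2.19 in PE+IFNy, with group means of 5.20 to 6.62 CPM in the others. Plk2 was 569 ± 63.3 CPM in LE and 364 ± 31.4 in PE, 141 ± 4.81 in LE+IFNy and 101 ± 6.51 in PE+IFNy, with 56.0 to 93.1 CPM in the others. The 4 labelled groups with these higher levels were those with a high IFN-γ state, whichever label they carried.

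Acy1 and Kbtbd11 were lower in these 4 groups than in the others. Acy1 was 2.79 ± 0.208 CPM (SD, n = 3) in libraries labelled LE, 4.07 ± 0.957 in PE, 7.51 ± 1.39 in LE+IFNy and 11.4 ± 3.04 in PE+IFNy, against 29.9 to 38.8 CPM in the other 4 groups. Kbtbd11 was 4.46 ± 0.322 CPM in LE, 3.83 ± 0.561 in PE, 17.9 ± 1.52 in LE+IFNy and 18.9 ± 0.607 in PE+IFNy, against 55.9 to 68.5 CPM. In this series LE+IFNy against IFNy compares libraries with a high and a low IFN-γ state, at log2 fold changes of 2.02 for Dio2, 1.25 for Arrdc3, 1.23 for Plk2, -1.99 for Acy1 and -1.88 for Kbtbd11. In the letter-labelled series both groups had a high state, so the same name stands for different comparisons in the 2 series.

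**Figure D4:**
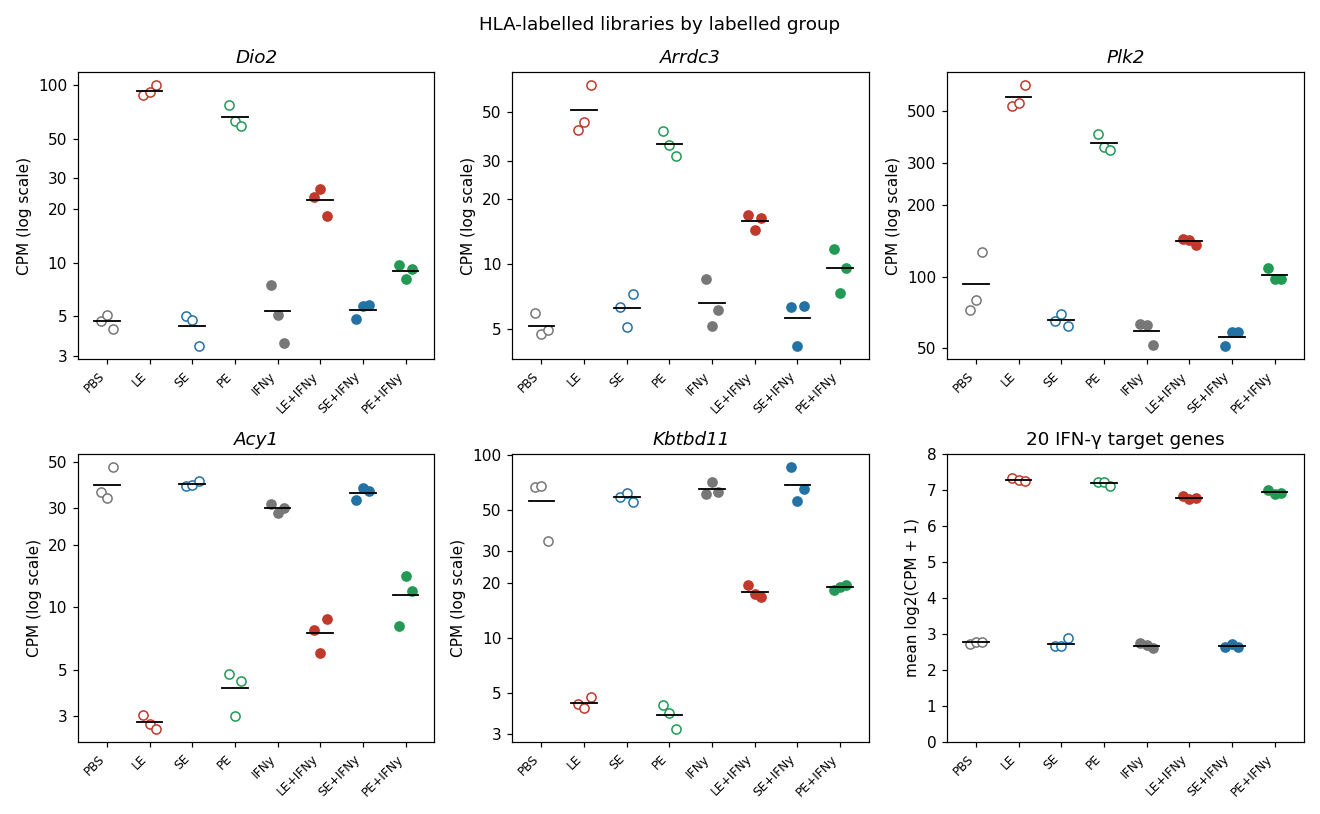
Level of each gene in the 24 HLA-labelled libraries, as CPM on a log axis by the group their labels give, and in the last panel the average over 20 targets of IFN-γ of log2(CPM + 1). Points are libraries, bars are group means, and filled points are groups labelled with IFN-γ. The libraries labelled LE and PE have a state near 7 and the highest Dio2, Arrdc3 and Plk2, while those labelled IFNy and SE+IFNy have a state near 3.

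Other genes of the same pathways were read in the letter-labelled series from lists that leave out the 5 genes. Their counts stand beside the shares of all genes called, 9.58% higher and 5.93% lower for LE+IFNy against IFNy and 5.25% higher and 2.34% lower for SE+IFNy against PE+IFNy, and none is shown to be particular to a list. Of 13 measured genes of thyroid hormone handling, LE+IFNy against IFNy had 1 higher, Klf9, a target gene of thyroid hormone (log2 fold change 0.72, edgeR adjusted p 5.13e-05), and 1 lower, Usp20, a deubiquitinase that acts on the DIO2 protein (-0.68, edgeR adjusted p 9.57e-06). The lists were chosen with earlier results known. The median of this one was 0.27, against -0.01 for all genes tested, and SE+IFNy against PE+IFNy called 0 of the 13. Of 12 arrestins and NEDD4-family ligases 3 rose with LE and 0 fell: the ligase Nedd4l (1.62, edgeR adjusted p 2.25e-09), the α-arrestin Arrdc4 (0.89, edgeR adjusted p 3.17e-06) and the ligase Smurf1 (0.67, edgeR adjusted p 1.61e-08). The same number, 3 higher and 0 lower, was called for SE+IFNy against PE+IFNy, and they were these genes: Nedd4l at 1.35, Arrdc4 at 1.44 and Smurf1 at 0.77.

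Among the 3 measured polo-like kinases other than Plk2, Plk4, which drives centriole duplication, rose with LE (log2 fold change 0.91, edgeR adjusted p 1.76e-07) and 0 fell. Between SE+IFNy and PE+IFNy the mitotic kinase Plk1 was the 1 call, lower with SE (-0.89, edgeR adjusted p 1.27e-05). Of 19 p53 target genes 3 rose with LE and 0 fell, close to the 15.5% of all genes called in either direction, with Eda2r at 1.13 (edgeR adjusted p 2.89e-06), Gdf15 at 0.88 (edgeR adjusted p 2.91e-08) and Trp53inp1 at 0.64 (edgeR adjusted p 0.00381), and 0 of 19 were called for SE+IFNy against PE+IFNy. The median of the p53 list was 0.07 with LE.

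Of 13 measured targets of cAMP and CREB, 5 rose with LE and 1 fell. The log2 fold change of Egr1, an immediate early transcription factor, was 2.42 (edgeR adjusted p 8.61e-10), that of Dusp1, a phosphatase of MAP kinases, was 2.21 (edgeR adjusted p 4.52e-11), and that of Sik1, a salt-inducible kinase, was 1.52 (edgeR adjusted p 0.000613). Rgs2, a regulator of G protein signalling, and the transcription factor Atf3 also rose, and the nuclear receptor Nr4a2 fell (-1.03, edgeR adjusted p 0.000255). With SE+IFNy against PE+IFNy 6 were higher and 0 lower, with Dusp1 at 1.75 (edgeR adjusted p 2.18e-09) and Egr1 at 1.33 (edgeR adjusted p 2.87e-06). The list's median was 0.24 for LE+IFNy against IFNy and 0.44 for SE+IFNy against PE+IFNy, against -0.01 for all genes in both. Of 5 measured aminoacylases and related peptidases only Cndp1, a dipeptidase, was called lower with LE (-1.73, edgeR adjusted p 0.000229), at 0.40 against 1.37 CPM. Of 18 BTB-Kelch adaptors and cullin 3 components Kbtbd12 was called higher (1.85, edgeR adjusted p 0.0122), at 0.52 against 0.15 CPM, and 0 of either list were called for SE+IFNy against PE+IFNy.

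The 2 nearest annotated genes on each side of each member were also read. Abhd14a, which lies 1732 bases from Acy1 on the same strand, was 9.06 CPM in PBS, 4.81 in IFNy and 2.55 in LE+IFNy. It was lower in LE+IFNy than in IFNy (log2 fold change -0.90, SE 0.187, edgeR adjusted p 0.000633), and for SE+IFNy against PE+IFNy it was at -0.28 (edgeR adjusted p 0.229). Rpl29, a ribosomal protein gene 1413 bases from Acy1 on the opposite strand, was at -0.13 (edgeR adjusted p 0.297) in LE+IFNy against IFNy, Dusp7 at -0.48 (edgeR adjusted p 0.00155), under the fold limit, and Abhd14b at -0.63 (edgeR adjusted p 0.149). Arhgef10, 9940 bases from Kbtbd11, was at -0.32 (edgeR adjusted p 0.00249), under the fold limit. Gm16350, 49439 bases from it on the opposite strand, was lower (-1.005, edgeR adjusted p 0.00389), at 1.08 against 2.19 CPM. The neighbours of Dio2, Arrdc3 and Plk2 that are in the table had too few counts to be tested.

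The genes whose levels followed the members most closely over the 24 letter-labelled libraries are given as a description, since all share the steps between groups. For Dio2, Rgs1 and Tatdn2 were among the 3 genes with the highest Pearson correlation of log2 CPM of 9605 genes, each at 0.98, with 0.94 and 0.88 in the HLA-labelled libraries. For Arrdc3 the 3 highest were with Nepro, Dusp4 and Clec5a, each at 0.98, with 0.88, 0.90 and 0.96. For Plk2 they were with Dusp1, Rabggtb and Cxcl2, each at 0.99, with 0.97, 0.93 and 0.95. For Acy1 they included Clstn1 and Cmtm3, each at 0.99, with 0.95 and 0.98, and for Kbtbd11 Cdc42se1 and Acadm, each at 0.99, with 0.97 and 0.96.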

How the data were processed

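RNA of RAW264.7 cells was sequenced by the authors as stranded poly(A) libraries, single-end, and reads were assigned to genes with featureCounts on the GRCm38.p5 build, per the labels and the study's methods. The aligner and strand setting are not given in the sources used here. The values deposited by the authors are raw counts of uniquely aligned reads for 49568 genes in 48 libraries, with no normalization. DESeq2 1.16.1 in R 3.4.1 is named in the submitters' notes, and its results were not used. Groups came from the labels. In the table's header, the 3 HLA columns beside the 3 letter columns of a group carried another group's label in all 8 blocks. The HLA columns beside letter groups without IFN-γ had mean IFN-γ states of 2.65 to 2.76. Those beside letter groups with IFN-γ had mean states of 6.78 to 7.29, so the state went with the column order in all 8 blocks. Column order was not used, and whether the HLA labels were exchanged was not tested.

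CPM is the count divided by the library total, times 1000000, without scaling factors. Fold changes came from edgeR 4.0.16 in R 4.3.3 (TMM, filterByExpr, quasi-likelihood F test, Benjamini-Hochberg over all genes tested) in fits of 3 letter-labelled libraries a group: the 4 groups without IFN-γ, the 4 with it, the 6 with a peptide, or PBS and IFNy. Of the 17 comparisons listed, 10 were tested for the members and 7 that touch LE+IFNy or IFNy were not. All 5 members passed the filter in every fit. Alternatives were DESeq2 1.42.0, RLE factors, no filter, 1 fit of all groups, a replicate block, each replicate left out, and the HLA-labelled or both series. Code was tested on simulated data. Same-numbered libraries deviated together, with every correlation over 0.1, in 5 of 28 pairs of groups, among them LE with SE, LE with PE and SE with PE (0.23 to 0.50). For these the pairing comes from the data, as the labels give only the numbers.

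Named genes were the members, the 3 genes most correlated with each (log2 CPM with a prior count of 2, mean of at least 5 CPM), up to 3 called genes of each of 7 lists with the largest change for LE+IFNy against IFNy, and the 2 nearest annotated genes on each side that passed the filter. Genes outside this rule (Id2, Plk1, Rgs2, Atf3, Nr4a2 and the overlapping antisense genes) were named after their values were seen. Some genes that the rule names are not reported here. The members and lists were chosen with earlier results of these data known. p-values measure the spread between libraries of 1 cell line.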

Additional observations from a re-analysis of the deposited data

Results flagged for a closer look

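The response to IFN-γ differed between cells given SE and cells given PE in all 5 genes, by a test of the difference itself in the letter-labelled libraries. This test shares libraries with SE+IFNy against PE+IFNy and is not separate support for it. The response with SE minus that with PE was, on the log2 scale, 1.58 for Dio2, 1.63 for Arrdc3, 1.22 for Plk2, -1.14 for Acy1 and -0.94 for Kbtbd11 (edgeR adjusted p from 2.97e-05 to 0.0033, 5 of 5 called, 4.81% of all genes called). The same quantity in the HLA-labelled libraries, by label, was 3.21, 1.86, 1.66, -1.62 and -2.02. There, the libraries labelled SE and SE+IFNy both had a low IFN-γ state and those labelled PE and PE+IFNy both a high one, so these values do not measure a response to IFN-γ.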

How the results depend on the processing

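The call counts of the 5 genes kept their value in all 10 tested comparisons with DESeq2, RLE factors, no filter, 1 fit of all 8 groups and a replicate block, and stayed within 1.5 times without each replicate (only Arrdc3 for PE+IFNy against PE lost its call, without replicate 1). The replicate numbers paired the libraries in some pairs of groups only: 43 of 84 same-number correlations were above 0.1 (from -0.38 to 0.54), and 85 of 168 combinations of a library and another group were highest for its own number, though for 0 of 24 libraries in every other group. With the replicate block, 5 of 5 genes were called for SE+IFNy against PE+IFNy and 0 of 5 for LE against PBS, while calls over all genes went from 239 to 344 for SE against PBS and from 389 to 514 for PE against PBS. Which libraries were used changed the results. With the HLA-labelled libraries only, 5 of 5 genes were called for LE against PBS, PE against PBS, LE against SE and SE against PE, 1 for LE against PE and 0 for SE+IFNy against SE. With both series as labelled, 0 were called for SE+IFNy against PE+IFNy, SE+IFNy against SE, PE+IFNy against PE and the difference of the responses. With the label series as a block, 4 were called for LE against PBS, 2 for PE against PBS, 3 for LE against SE and 0 for the same 4 comparisons with IFN-γ. The IFN-γ state of those libraries moves with these changes, and its part was not tested.

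The log2 fold changes that follow changed sign and were called in at least 1 of the fits or, where no test was made, were over 1.5-fold in the letter-labelled libraries. Another 8 changed sign outside these limits with the HLA-labelled libraries only, 16 with both series as labelled, 12 with the label series as a block, 1 with the replicate block, and 4, 4 and 7 without replicate 1, 2 and 3. With the HLA-labelled libraries only, those inside the limits were as follows. For LE against PBS they were 4.43 for Dio2 and -3.69 for Acy1. For PE against PBS they were 2.81 for Arrdc3, 2.00 for Plk2 and -3.24 for Acy1. For LE against SE they were 4.46 for Dio2, 3.20 for Plk2 and -3.63 for Kbtbd11. For SE against PE they were -3.90 for Dio2, -2.55 for Arrdc3, -2.49 for Plk2 and 3.92 for Kbtbd11. For SE+IFNy against PE+IFNy they were -0.69 for Dio2, -0.70 for Arrdc3, -0.82 for Plk2, 1.65 for Acy1 and 1.89 for Kbtbd11. For SE+IFNy against SE they were -0.10 for Arrdc3, -0.22 for Plk2 and 0.24 for Kbtbd11. For PE+IFNy against PE they were -2.93 for Dio2, -1.96 for Arrdc3, -1.89 for Plk2, 1.49 for Acy1 and 2.26 for Kbtbd11. Against IFNy, those of SE+IFNy were -0.17 for Arrdc3, -0.0532 for Plk2, 0.28 for Acy1 and 0.11 for Kbtbd11. For LE+IFNy against LE they were -2.17 for Dio2, -1.81 for Arrdc3, -2.14 for Plk2, 1.32 for Acy1 and 1.88 for Kbtbd11. For IFNy against PBS they were -0.65 for Plk2 and 0.22 for Kbtbd11. With the label series as a block, they were as follows. For LE against PBS they were 2.93 for Dio2. For PE against PBS they were 1.53 for Arrdc3. For LE against SE they were 2.76 for Dio2 and 1.58 for Plk2. For SE+IFNy against PE+IFNy they were 0.40 for Acy1 and 0.34 for Kbtbd11. For PE+IFNy against PE they were -1.39 for Dio2, -1.06 for Arrdc3 and -0.80 for Plk2. For the response with SE minus that with PE they were 0.34 for Kbtbd11. For LE+IFNy against LE they were -0.0942 for Dio2. With both series as labelled, they were as follows. For SE+IFNy against PE+IFNy they were 0.66 for Acy1 and 0.74 for Kbtbd11. For PE+IFNy against PE they were -2.14 for Dio2, -1.57 for Arrdc3 and -1.01 for Plk2. For the response with SE minus that with PE they were 0.36 for Kbtbd11. For LE+IFNy against LE they were -1.05 for Dio2, -0.61 for Arrdc3 and -0.33 for Plk2. 

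Calls over all genes also moved by over 1.5 times between alternatives, from 3 (0 to 4065) for LE against PBS, 239 (0 to 419) for SE against PBS, 389 (0 to 3627) for PE against PBS, 0 (0 to 4078) for LE against SE, 3 (0 to 215) for LE against PE, 4 (0 to 3503) for SE against PE, 966 (0 to 2051) for SE+IFNy against PE+IFNy, 3410 (0 to 3603) for SE+IFNy against SE, 2715 (271 to 2879) for PE+IFNy against PE, 623 (0 to 1913) for the difference of the responses and 1972 (110 to 2086) for LE+IFNy against IFNy. With 3 libraries a group and levels of 1 to 3 CPM, changes under about 1.5-fold in Dio2 and Arrdc3 without IFN-γ could not be told from 0.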
